A study of Drosophila melanogaster with 9 samples.

Results

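Cytosolic ribosomal proteins and their paralogs were followed in heads of Drosophila melanogaster, as the transcripts of 41 genes among 11982 genes named on the arrays. Members were all genes with a current or platform symbol that starts with RpL or RpS and then a digit or P, with RpL for the large and RpS for the small ribosomal subunit. Where several probe sets name a gene, the brightest by its 9-array mean was used. Of the 41 genes, 25 belong to the large and 16 to the small subunit. A paralog letter marks 8 of them, which are RpL10Aa, RpL10Ab, RpL34a, RpS5b, RpS10a, RpS19b, RpS28a and RpS28b. Another 5 have a symbol ending in -like. A current gene table names 92 genes that meet the rule, and the other 51, among them RpS5a, RpS10b, RpS19a and RpL34b, were not analysed here. Symbols of mitochondrial ribosomal proteins start with mRp, so the rule leaves them out.

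Each ribosome holds 1 copy of most ribosomal proteins, so cells make their transcripts in step and in very large amounts. In flies, losing a copy of many of these genes gives the Minute phenotype of slow growth and short bristles. Some fly ribosomal proteins are also encoded by a paralog known mainly from the germline, such as RpL22-like in the testis and RpS5b in the ovary. Not every gene with such a symbol builds the ribosome: RpL7-like, RpL24-like and RpLP0-like are counterparts of the yeast proteins Rlp7, Rlp24 and Mrt4, which help to assemble the large subunit.

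Total RNA of fly heads was hybridised to Affymetrix arrays at 6 times read from the titles as zeitgeber times (ZT, hours from lights-on). ZT15 has 2 arrays, ZT3 has 3, and a single array stands for each of the times ZT7, ZT11, ZT19 and ZT23. All titles carry the number 5073, which the labels do not explain, and no treatment is named. The labels give no genotype, strain, sex, age, light schedule or number of flies, and do not say whether arrays of the same time came from separate flies, so p-values measure the spread between these arrays, which may be technical. All levels are on what was taken to be the authors' log2 scale, where a difference of 1 is read as 2-fold. The base was inferred from added controls, as described under the processing, and fold values depend on it.

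The arrays were not alike. A list of 23 testis and accessory gland genes had a median level of 3.25 on ZT3 replicate 1 and 3.29 on ZT15 replicate 2, and of 9.52 to 11.52 on the other 7 arrays. All 21 of its tested genes were lower on both of these arrays than on all 7 others, beside 17.3% of all probe sets. The 2 arrays were set apart with these data known. Most of the 21 genes reached 5 on 2 arrays, the filter used here, only through the other 7 arrays. The count is thus a description and no test. These 2 arrays are called the 2-array set here. For a list of gut genes the medians were 4.13 to 6.36 on the 3 ZT3 arrays and ZT15 replicate 2, and 9.37 to 10.61 on the other 5. The ovary and germline list had medians of 3.14 to 3.71, under the filter level of 5 on every array. Only 4 of its 17 named genes passed the filter, so its flat median says little about germline RNA. Of these, bgcn had 3.76, 3.94 and 3.70 at ZT3 and 3.86 on ZT15 replicate 2, and 4.92 to 5.86 on the other 5 arrays. BicC had 3.04, 4.71 and 3.85 at ZT3 and 3.26 on ZT15 replicate 2, and 4.83 to 5.33 on the other 5. Their lower levels lie under 5, so the size of the step is not taken as measured. Cp18 ran from 4.78 to 5.28 and Vm26Aa from 4.23 to 5.36, without this division. Eye markers, which define a head sample, lay between 13.20 and 13.84 by median over the 8 of 12 that were named. Median levels per array were 6.05 to 6.65.

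Most ribosomal protein transcripts sat at the upper end of the arrays and varied little. The mean level was over 13 for 29 of the 41 genes, between 8 and 13 for 4 (RpL34a, RpL7-like, RpL24-like and RpLP0-like) and under 8 for 8. These limits were set after the values were seen, and a level depends on the probes, so no gene's level is ranked against another's. Among the 29 abundant genes the span from the lowest to the highest array was 0.14 to 0.72, or 1.10- to 1.65-fold, with a median of 0.39. The median span over all 12105 probe sets tested was 0.86. Transcripts near the top of the intensity range can be compressed, and such compression was not tested here.

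**Figure D1:**
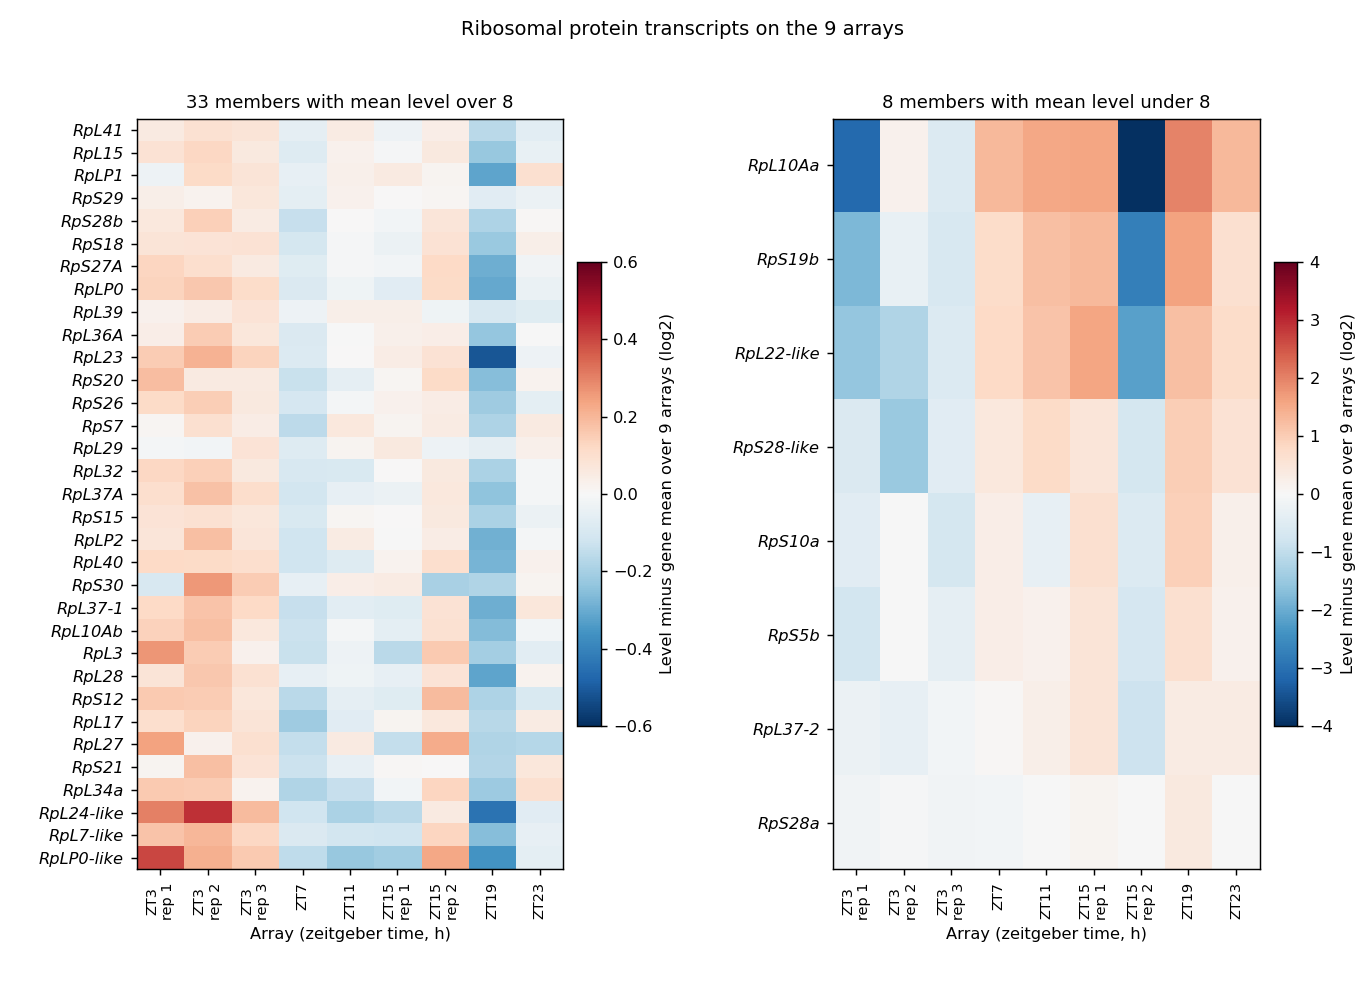
Level of each ribosomal protein gene on each of the 9 arrays, as the difference from that gene's own mean over the 9 arrays (log2, colour), for the 33 genes with a mean level over 8 on the left and the 8 genes with a mean level under 8 on the right. The colour scales differ between the panels and are given by the bars; the left panel is bluest at ZT19, and the right panel at ZT3 replicate 1 and ZT15 replicate 2.

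RpS29, a small subunit protein, had the narrowest span, with levels of 14.94, 14.92 and 14.97 at ZT3, 14.84 at ZT7, 14.93 at ZT11, 14.90 and 14.91 at ZT15, 14.83 at ZT19 and 14.86 at ZT23. No array stood apart for it. The large subunit genes RpL29 and RpL39 were next, with spans of 0.16 and 0.18. RpL32, the gene often used as the reference in fly quantitative PCR under the name rp49, had levels of 14.74, 14.76 and 14.67 at ZT3, 14.52 at ZT7, 14.53 at ZT11, 14.62 and 14.67 at ZT15, 14.43 at ZT19 and 14.60 at ZT23. It is named here for that use, outside the rule for named genes. Its highest and lowest arrays differed by 0.33, or 1.26-fold, and both lay outside the 2-array set.

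The widest span among abundant members was that of RpL23, a large subunit protein, with 14.88, 14.94 and 14.87 at ZT3, 14.65 at ZT7, 14.73 at ZT11, 14.77 and 14.82 at ZT15, 14.22 at ZT19 and 14.70 at ZT23. The single ZT19 array alone set this span. RpL28, another large subunit gene, spanned 0.48 with its lowest level, 14.07, also at ZT19.

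The ZT19 array held the lowest level of most members. Of the 33 genes without a paralog letter, 27 were lowest there, as were 26.9% of all probe sets tested. Their median deviation at ZT19 from the mean of the other 8 arrays was -0.24, beside -0.14 over all probe sets tested. The 99th percentile of all probe sets was also lowest at ZT19, at 13.77 against 13.87 to 14.06 on the other arrays. With quantile normalization, which gives every array the same distribution, 8 of the 33 genes were lowest at ZT19 (22.83% of all probe sets) and the median deviation was -0.02. With arrays centred on their medians it was 30 of 33 (37.22% of all probe sets). ZT19 has 1 array, so this carries no replicate check.

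**Figure D2:**
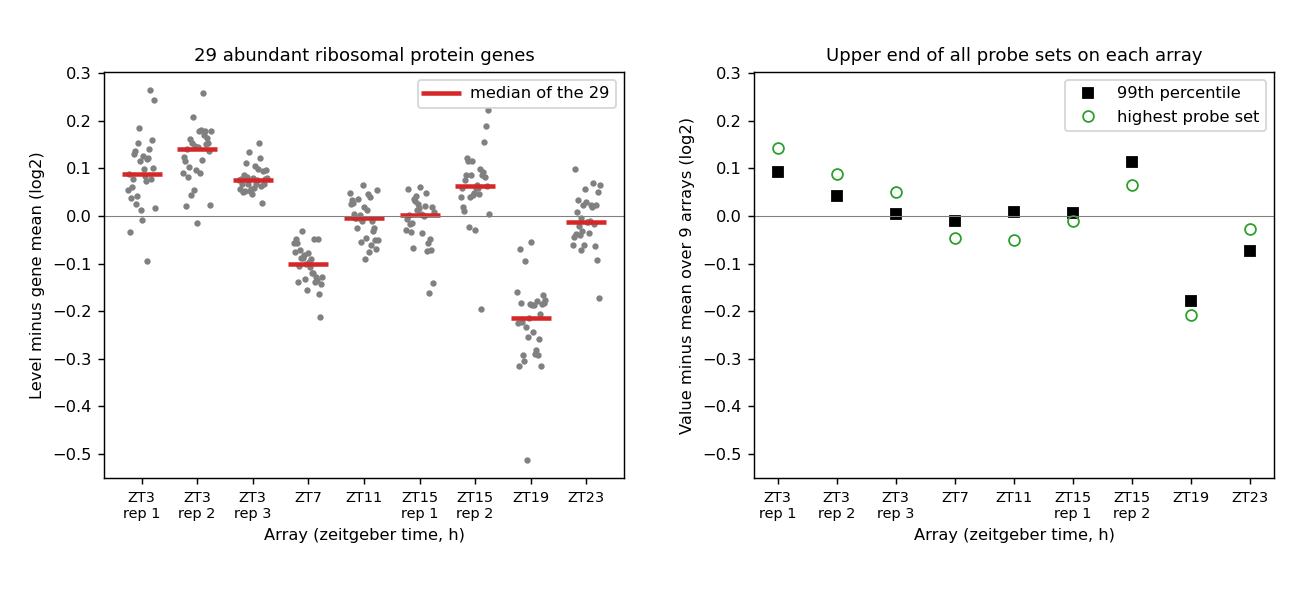
Left, levels of the 29 abundant ribosomal protein genes on each array as the difference from each gene's own mean (log2; grey points, genes; red bar, median of the 29). Right, the 99th percentile (black squares) and the highest level (open green circles) of all probe sets on each array, as the difference from their mean over the 9 arrays; both panels are lowest at ZT19, where the percentile lay 0.18 under its mean.

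At the other end, 28 of the 33 genes without a letter were highest on a ZT3 array, where 44.3% of all probe sets were highest. Both arrays of the 2-array set were above all 7 others for 6 of the 41 members, RpL3, RpL27, RpLP0-like, RpS12, RpS20 and RpS27A, the last of which is made as a fusion with ubiquitin. For comparison, 38.6% of all probe sets had that pattern. With arrays centred on their medians, a step that raised the 2-array set by 0.50 and 0.51, the count was 32 of 41 (63.14% of all probe sets).

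The paralogs of low level behaved differently from array to array. RpL10Aa, a paralog of the large subunit gene RpL10Ab, had levels of 3.54, 6.83 and 6.11 at ZT3, 7.97 at ZT7, 8.21 at ZT11, 8.22 and 2.43 at ZT15, 8.63 at ZT19 and 7.95 at ZT23. Both arrays of the 2-array set were far below the rest, and ZT3 replicates 2 and 3 lay between them and the later times. Both low values lie under 5, the level used in the filter on dim probe sets, so how far they lie below the rest is not taken as measured. RpL10Ab itself had 14.56, 14.59 and 14.48 at ZT3, 14.29 at ZT7, 14.40 at ZT11, 14.36 and 14.51 at ZT15, 14.16 at ZT19 and 14.40 at ZT23. Its span was 0.44, and the array on which RpL10Aa was highest, ZT19, was the one on which RpL10Ab was lowest. This is not particular to the pair. ZT19 was the lowest array for 26 of the 29 abundant genes and the highest for 6 of the 8 of low level.

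RpS19b, a paralog known from the germline, had 3.38, 4.91 and 4.55 at ZT3, 5.92 at ZT7, 6.41 at ZT11, 6.49 and 2.44 at ZT15, 6.80 at ZT19 and 5.83 at ZT23. The order of its arrays resembled that of RpL10Aa, with the 2-array set lowest and ZT19 highest. RpL22-like, the testis paralog of RpL22, had 4.40, 4.75 and 5.41 at ZT3, 6.74 at ZT7, 7.10 at ZT11, 7.52 and 3.76 at ZT15, 7.16 at ZT19 and 6.70 at ZT23. All 3 ZT3 arrays and ZT15 replicate 2 were below the other 5, which is also the division of the gut list. Several levels of both genes also lie under 5.

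RpS5b, the germline paralog of RpS5a, had 6.28, 7.02 and 6.68 at ZT3, 7.31 at ZT7, 7.20 at ZT11, 7.56 and 6.36 at ZT15, 7.67 at ZT19 and 7.20 at ZT23. Its span was 1.39, or 2.62-fold, and the 2-array set was again below all other arrays. RpS5b and RpL10Aa lie on the same chromosome with 6 annotated genes between them. RpS28a and RpL32 also share a chromosome, with 10 genes between them, and ZT19 was the highest array for RpS28a and the lowest for RpL32. The part of location in these levels was not tested.

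RpL37-2, the paralog of RpL37-1, had 6.13, 6.04 and 6.26 at ZT3, 6.42 at ZT7, 6.61 at ZT11, 6.88 and 5.53 at ZT15, 6.70 at ZT19 and 6.69 at ZT23. All 3 ZT3 arrays and ZT15 replicate 2 were below the other 5, the division seen for RpL22-like and the gut list. RpL10Aa, RpS19b and RpS5b had this division as well, as did RpS28-like, described below. The share of all probe sets that had it was not counted, so it is not read as a trait of these genes. RpL37-1 spanned 0.46, from 14.16 at ZT19 to 14.62 on ZT3 replicate 2. RpS10a had 5.19, 5.63 and 4.95 at ZT3, 5.90 at ZT7, 5.32 at ZT11, 6.30 and 5.10 at ZT15, 6.60 at ZT19 and 5.84 at ZT23, and here the 2-array set overlapped the other arrays.

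The 3 small subunit genes of the RpS28 name did not share a pattern. RpS28b spanned 0.32, from 14.70 at ZT19 to 15.03 on ZT3 replicate 2. RpS28a had 5.38, 5.47 and 5.37 at ZT3, 5.40 at ZT7, 5.49 at ZT11, 5.63 and 5.52 at ZT15, 5.91 at ZT19 and 5.49 at ZT23. RpS28-like had 5.98, 5.08 and 6.12 at ZT3, 7.01 at ZT7, 7.33 at ZT11, 7.05 and 5.86 at ZT15, 7.57 at ZT19 and 7.15 at ZT23. RpS28a moved by 0.53 over all arrays with the 2-array set inside its range, whereas RpS28-like was lower on the 3 ZT3 arrays and ZT15 replicate 2 than on the other 5. With quantile normalization the highest RpS28a level was that of ZT15 replicate 2, 6.01, and not that of ZT19, 5.67.

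**Figure D3:**
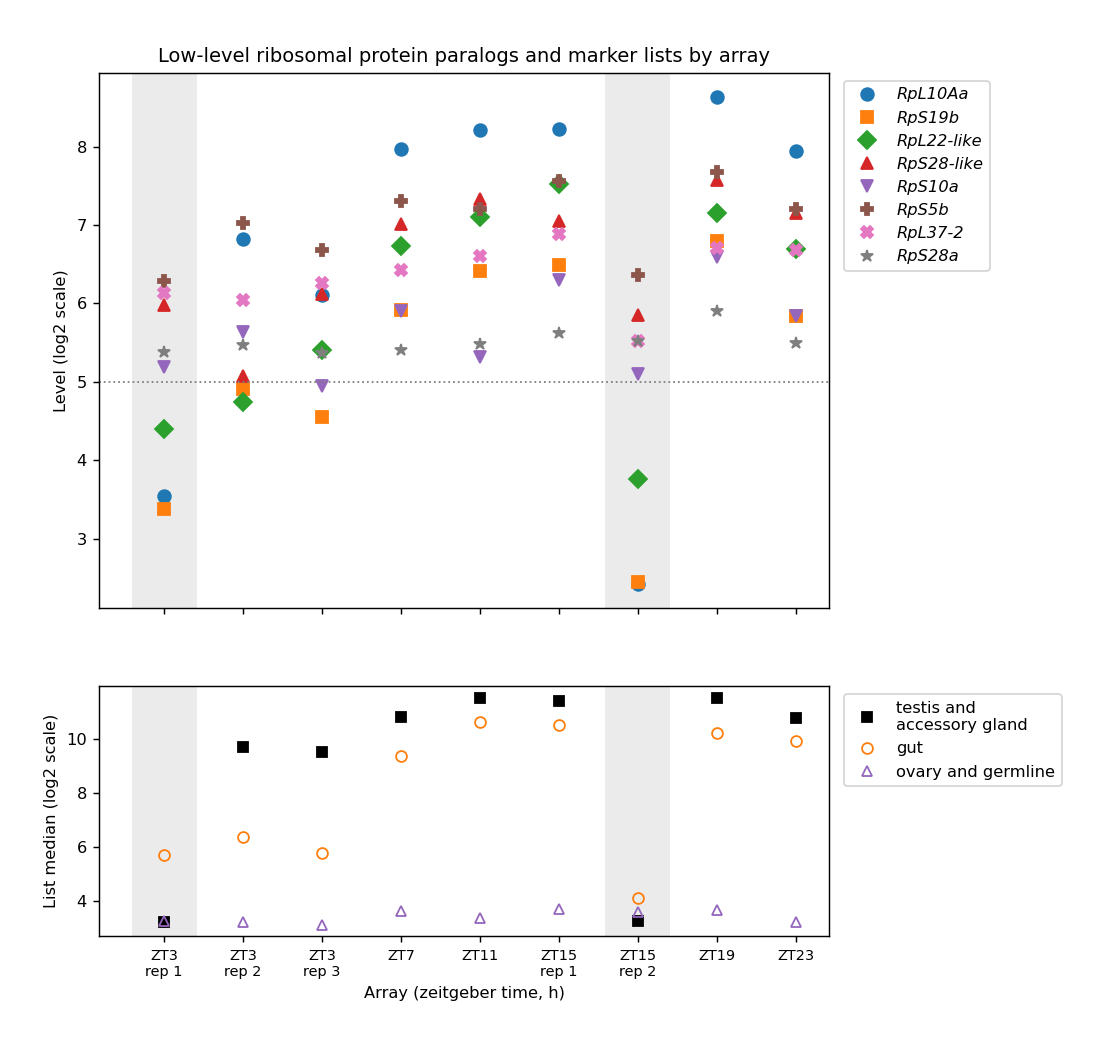
Top, levels of the 8 ribosomal protein genes with a mean level under 8 (log2 scale) on each of the 9 arrays, with 1 symbol per gene; the dotted line marks the level of 5 used in the filter. Bottom, medians of the testis and accessory gland, gut, and ovary and germline lists on the same arrays (log2 scale); the grey bands mark ZT3 replicate 1 and ZT15 replicate 2, where RpL10Aa and RpS19b were at 2.43 to 3.54.

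Of the 8 genes of low level, 6 were highest at ZT19, where 14.5% of all probe sets were highest. RpL22-like and RpL37-2 were highest on ZT15 replicate 1. RpL10Aa, RpS19b, RpL22-like and RpS5b were lower on both arrays of the 2-array set than on all 7 others. That is 4 of 41 members, where 17.3% of all probe sets had this pattern, so the members as a whole did so in a share under the background. The same 4 had the pattern with arrays centred on their medians. With quantile normalization 3 of them did, RpL22-like not being among them, and RpS30 did as well. The testis list medians given above are low on the same 2 arrays, and the gut list medians on these and the other ZT3 arrays. The part of testis, accessory gland or gut RNA in these 4 levels was not tested. A level in the RNA of a whole sample does not tell which tissue it came from. Nor does it tell fewer cells of a type from less RNA per cell. The ovary and germline list medians were 3.27 and 3.62 on the 2-array set, within the 3.14 to 3.71 of the other arrays. All of these medians lie under 5, so they do not show whether germline RNA differed. In that list, bgcn and BicC were lower on the ZT3 arrays and ZT15 replicate 2 than on the rest, and Cp18 and Vm26Aa were not. The part of germline RNA in the levels of the members was not tested.

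As a description, the genes most like RpS5b over the 9 arrays were CG34210 (Pearson r = 0.99), CG15483 (0.98) and CG15461 (0.98). Those most like RpS28a were robl37BC (0.95), Vps13B (0.94) and CG42360 (0.91). Over the 7 arrays outside the 2-array set the values were 0.98, 0.95 and 0.95 for RpS5b and 0.96, 0.94 and 0.90 for RpS28a. These genes were picked as the highest of all named genes tested, the arrays share their normalization and fall into separate sets, and genes are not independent replicates.

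The first question the design allows is whether levels at ZT15 differ from those at ZT3, the only times with replicates. Ribosomal protein genes were slightly lower at ZT15 in value, with none past the test. In limma, 0 of 41 members passed an adjusted p of 0.05, beside 0.0% of the 12105 probe sets tested, and 0 had an unadjusted p under 0.05, beside 2.35% of all. The smallest adjusted p of a member was 1.00. For the 33 genes without a letter the median difference was -0.07, with 30 below 0 and 3 above, and over all probe sets tested it was -0.04, with 57.93% below 0. The eye markers were also lower in value, with a median difference of -0.24, 8 of 8 below 0, 0 called and 2 with an unadjusted p under 0.05, and 5 of the 8 were lowest at ZT19. The part of the share of eye tissue in the ribosomal protein values was not tested. For the ribosomal protein genes the median was -0.08 over 22 large subunit genes and -0.05 over 11 small subunit genes.

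The median difference was below 0 in both sets of arrays, but its size differed. Within the 2-array set the median over the 33 genes was -0.03, beside 0.01 for all probe sets tested. Within the other arrays it was -0.10, beside -0.15. It thus lay under the median of all probe sets in the first and above it in the second. Both values were below 0 for 24 of the 33. The share of all probe sets with this was not counted, so the count is not read as a result about these genes. For the 29 abundant genes the SE was 0.13 to 0.19. It rests largely on the spread limma shares among all probe sets, since the SD over the 3 ZT3 arrays was 0.0042 to 0.18.

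Without regard to the test, both ZT15 arrays were below all 3 ZT3 arrays for 12 of the 41 members, beside 9.62% of all probe sets. They were RpL17, RpL23, RpL24-like, RpL36A, RpL37-1, RpL37A, RpL41, RpLP2, RpS15, RpS21, RpS26 and RpS29. RpS28a was the 1 member above, beside 3.42% of all. The count below was 9 with quantile normalization (9.47% of all probe sets), 5 of them among the 12, and 1 with arrays centred on their medians (5.53%), RpS30, which is not among the 12. RpS28a was not above under either scaling: the 1 member above was RpS7 with quantile normalization (4.39% of all), and 0 were above with arrays centred (1.76%).

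RpL24-like had the most negative difference. It had 11.94 and 12.15 on the ZT15 arrays, against 12.40, 12.54 and 12.29 on the ZT3 arrays. The groups did not overlap, and the difference was -0.36 (SE 0.17). RpLP0-like averaged 8.73 ± 0.31 at ZT15 (SD, n = 2) and 8.97 ± 0.13 at ZT3 (SD, n = 3), a difference of -0.25 (SE 0.20) with overlapping groups. RpL7-like differed by -0.16 (SE 0.16), with 11.04 ± 0.18 at ZT15 (SD, n = 2) and 11.20 ± 0.04 at ZT3 (SD, n = 3). Without ZT15 replicate 1 the differences of RpLP0-like and RpL7-like were -0.03 and -0.04, and without ZT15 replicate 2 they were -0.47 and -0.29.

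Among the other genes without a letter, RpS30 had 14.51 and 14.27 at ZT15, against 14.37, 14.72 and 14.61 at ZT3, a difference of -0.18 (SE 0.19). RpL3, which lies close to the peptidyl transferase centre, differed by -0.15 (SE 0.18), and RpL37-1 by -0.13 (SE 0.14). RpL37A differed by -0.11 (SE 0.14), and so did RpLP0, the base of the ribosomal stalk (SE 0.15). All 5 differences were smaller than their SE. RpL37-2 had the only positive difference among the 28 genes with neither a letter nor -like, 0.06 (SE 0.44).

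**Figure D4:**
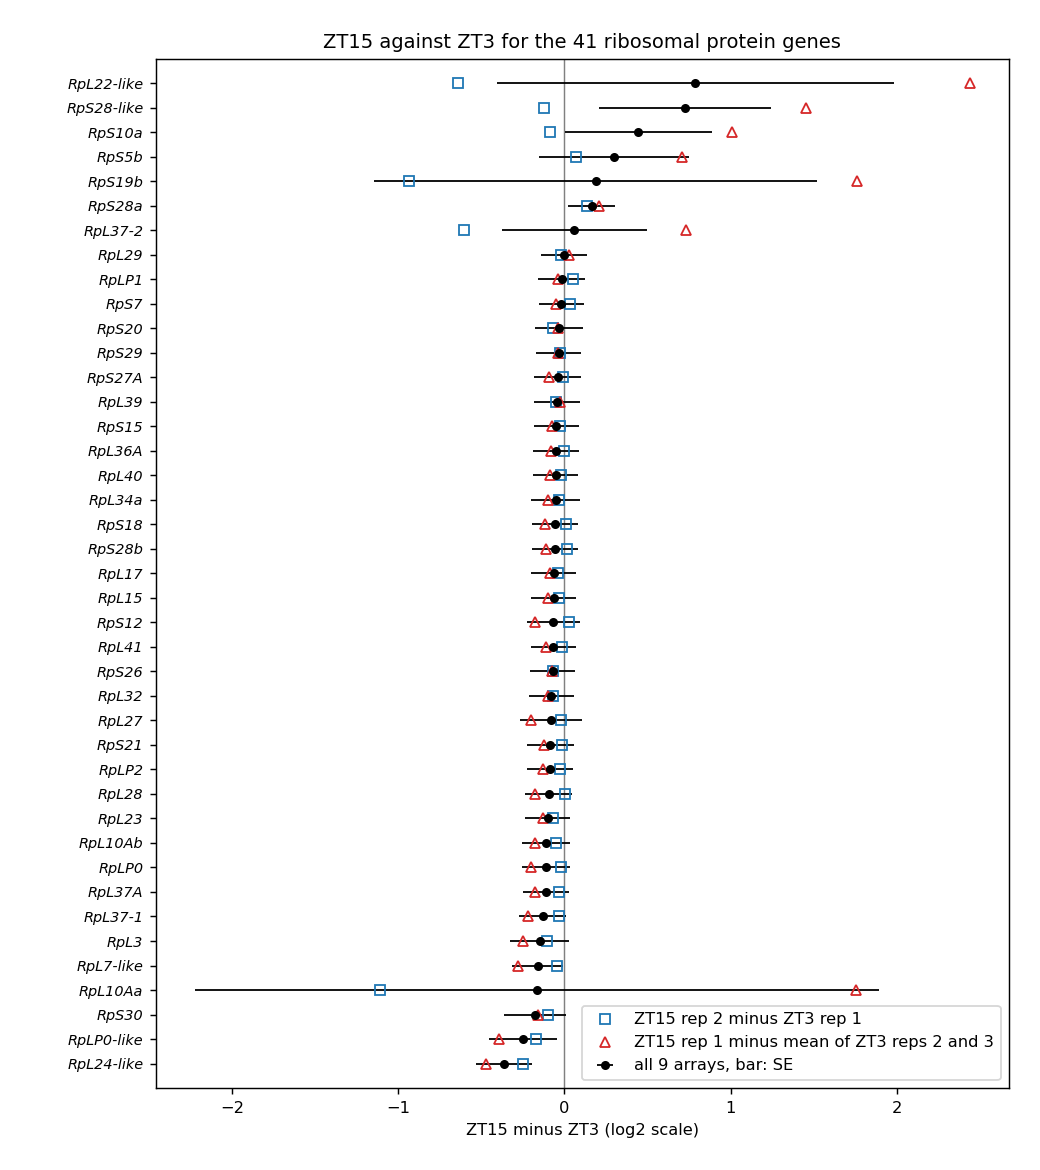
Difference of ZT15 minus ZT3 (log2 scale) for each of the 41 ribosomal protein genes, from limma over the 9 arrays (black points, bar SE), within the 2-array set (open blue squares) and within the other arrays (open red triangles). The 29 abundant genes lie between -0.18 and 0. RpL10Aa, RpS19b and RpL22-like have squares at -1.11, -0.94 and -0.64 and triangles at 1.75, 1.76 and 2.44. These 3 squares compare levels that are all under 5. The triangles of RpS19b and RpL22-like use at least 1 ZT3 level under 5.

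The lettered and -like paralogs of low level had wide errors in this comparison. RpL10Aa averaged 5.33 ± 4.10 at ZT15 (SD, n = 2) and 5.49 ± 1.73 at ZT3 (SD, n = 3), a difference of -0.17 (SE 2.06). RpS19b differed by 0.19 (SE 1.33), RpL22-like by 0.79 (SE 1.19), RpS28-like by 0.73 (SE 0.52), RpS10a by 0.44 (SE 0.44) and RpS5b by 0.30 (SE 0.45). The sign turned between sets of arrays for RpL10Aa, RpS19b, RpL22-like, RpL37-2, RpS28-like and RpS10a, which were below 0 within the 2-array set and above 0 within the others. For RpL10Aa, RpS19b and RpL22-like both levels within the 2-array set lie under 5, so that sign is not a measured direction. RpS5b was above 0 in both, at 0.07 and 0.71. RpS28a was too, at 0.13 and 0.21, with 5.57 ± 0.08 at ZT15 (SD, n = 2) and 5.41 ± 0.05 at ZT3 (SD, n = 3), a difference of 0.16 (SE 0.14). Among the lettered genes with a mean level over 8, RpL10Ab differed by -0.11 (SE 0.15), RpS28b by -0.06 (SE 0.14) and RpL34a by -0.05 (SE 0.15).

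Without the 2-array set, limma called 4 of 41 members, all higher at ZT15, beside 18.1% of all probe sets (2190). An unadjusted p under 0.05 was found for 9 of 41 members and 35.7% of all. Those called were RpL22-like (difference 2.44), RpS19b (1.76), RpL10Aa (1.75) and RpL37-2 (0.73). The ZT3 levels of RpS19b used here, 4.91 and 4.55, and that of RpL22-like on ZT3 replicate 2, 4.75, lie under 5. The sizes for RpS19b and RpL22-like are therefore not taken as measured. This comparison has 1 ZT15 array against 2 ZT3 arrays, and the lone array is assumed to vary like the others. The testis and gut list medians were also higher on that ZT15 array, at 11.37 and 10.52, against 9.68 and 9.52 for testis and 6.36 and 5.78 for gut on the ZT3 arrays. The part of these tissues in the 4 calls was not tested, and the members' share lies under the background.

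The other question is whether levels follow a 24 h curve. In limma's test for a 24 h cosine, 0 of 41 members passed an adjusted p of 0.05 (0.033% of all probe sets did) and 0 had an unadjusted p under 0.05 (4.33% of all). Amplitude, the size of the fitted cosine, had a median of 0.08 over the 33 genes without a letter, beside 0.16 over all probe sets tested. With the 2-array set as a block, 0 of 41 passed (0.248% of all) and 1 had an unadjusted p under 0.05 (16.9% of all). That was RpS28a, with an amplitude of 0.19 and an adjusted p of 0.294 in limma. With the set left out, 0 passed, beside 0.562% of all, and 5 had an unadjusted p under 0.05, beside 28.4% of all.

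Among the 28 genes with neither a letter nor -like, the largest amplitudes were 0.16 (SE 0.11) for RpL23, 0.13 (SE 0.23) for RpL37-2 and 0.10 for RpLP0 (SE 0.08), RpL28 (SE 0.08) and RpS30 (SE 0.08). RpL24-like reached 0.22 (SE 0.10) with its maximum at ZT4.0, and RpS28a 0.19 (SE 0.08) at ZT18.4. Without the ZT19 array the amplitude was 0.10 for RpS28a, 0.05 for RpL23 and 0.17 for RpS10a. RpL22-like, RpS28-like, RpS10a and RpS19b had 0.52, 0.47, 0.42 and 0.35, with SE of 0.56, 0.33, 0.27 and 0.64. RpL10Aa had 0.25 (SE 1.04) and RpS5b 0.22 (SE 0.22). Apart from RpL24-like and RpS28a, none of these amplitudes was more than 2 SE. An amplitude cannot be negative, so a size of 2 SE is no test. In limma's test for a 24 h cosine the unadjusted p was 0.14 for RpL24-like and 0.094 for RpS28a.

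For the 4 members with several probe sets, RpL3, RpS7, RpS29 and RpS30, no gene had tested probe sets of opposite sign in ZT15 against ZT3. The probe sets of RpL3 lay at 14.19 to 14.66, 8.74 to 9.54 and 4.85 to 6.25, so a low level of 1 probe set says little about a gene. The 3 probe sets that name a ribosomal protein gene with another gene were left out.

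Other genes of ribosome production and translation were also without calls. In a list of ribosome biogenesis and RNA polymerase I genes, 0 of 23 tested were higher and 0 lower at ZT15 past the test, with a median difference of -0.18 and 21 below 0. The smallest p was that of Nop56, a core protein of the particles that methylate ribosomal RNA. It had 9.34 and 9.49 at ZT15, against 10.01, 9.95 and 9.85 at ZT3, a difference of -0.52 (SE 0.15, limma's adjusted p = 1.00) with no overlap. Nop60B, the pseudouridine synthase of ribosomal RNA, differed by -0.38 (SE 0.14) and Fib, the methyltransferase fibrillarin, by -0.36 (SE 0.15). Median levels of this list were 8.96 and 8.91 on the 2-array set, and 8.28 to 8.66 on the other arrays.

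Of 30 translation factors, 0 were called in either direction, with a median of -0.11 and 29 below 0. The initiation factor subunits eIF3l (-0.31, SE 0.16), eIF3f1 (-0.24, SE 0.14) and eIF3m (-0.22, SE 0.14) had the smallest p. ZT19 was the lowest array for 13 of these 30, beside 26.9% of all probe sets. It was the lowest for 7 of the 23 biogenesis and RNA polymerase I genes and for 6 of the 19 growth regulators below. Of 19 growth regulators of ribosome production, 0 were called, with a median of -0.12; Pdk1, a kinase of insulin signalling, differed by -0.39 (SE 0.15), S6kII, a ribosomal S6 kinase, by -0.23 (SE 0.16) and foxo, a transcription factor restrained by insulin signalling, by -0.20 (SE 0.16). No member of these 3 lists passed the test for a 24 h curve.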

How the data were processed

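The deposited table holds 1 intensity per probe set and array, made by the authors with GCRMA, per the submitters' processing notes, which give no version. The natural log of the deposited intensity was taken as log2: deposited values reach 8120023, and the added controls, taken to be at the manufacturer's usual 1.5, 5, 25 and 100 pM, gave a slope against log2 concentration of 1.02 ± 0.0641 (SD over 9 arrays), where log2 of the deposited intensity gave 1.47. If log2 were right, differences would be larger by a constant factor and directions the same. Of 18952 probe sets, 183 controls were left out; 12105 that reached 5 on at least 2 arrays were tested, which included all 41 members. Of the 18769 others, 13647 named 1 gene, 402 several and the rest none here; symbols were updated by gene identifier, for all 41 members. limma 3.58.1 in R 4.3.3 (lmFit, eBayes) fitted 6 group means for ZT15 minus ZT3, and a cosine and sine of 24 h, over the 9 arrays, with two-sided p-values adjusted by Benjamini-Hochberg over all probe sets tested (threshold 0.05). The steps were tested on simulated data. The number of arrays limits the precision.

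Members, lists and the 2-array set were chosen with earlier results of these data known. Named were all members with a letter or -like. Of the others, the 5 largest differences in each direction (only 1 was positive), the 5 largest amplitudes and the 3 widest and 3 narrowest spans were named, as were the 3 smallest p in each translation list and the 3 genes most like RpS5b and RpS28a. RpL32, and members listed by a count, were named after their values were seen. ZT3 and ZT15 share replicate numbers, but same-numbered arrays deviated in opposite ways (r = -0.86 and -0.81 over 12105 probe sets), so the numbers were not taken as pairs. The deviations of the ZT15 arrays from their mean are exact opposites, so these r values are tied and are not separate evidence. Alternatives were quantile normalization, centring, no filter, log2 values, averaged probe sets, ZT3 and ZT15 arrays alone, blocks, and left-out arrays.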

Additional observations from a re-analysis of the deposited data

How the results depend on the processing

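No ribosomal protein gene was called under any alternative tried except 4 with the 2-array set left out, where 2190 probe sets passed for ZT15 against ZT3. The count of all probe sets with a 24 h curve was 4, and 30 with the 2-array set as a block, 68 without it, 1 with arrays centred on their medians and 2 to 11 with 1 array left out (11 without ZT15 replicate 2). The replicate block gave 0 calls of all probe sets for ZT15 against ZT3, as did the crossed pairing, added after the data were seen; the median difference of the genes without a letter was -0.08 with the block. That median, -0.07, was -0.13 with arrays centred and -0.10 to -0.04 with 1 array left out. The median amplitude, 0.08, was 0.13 with arrays centred and 0.0622 (without ZT19) to 0.14 (without ZT7) with 1 array left out. The count lowest at ZT19, 27, was 8 with quantile normalization. The cause of these changes was not tested.

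Of 24 named members, 12 turned sign in ZT15 against ZT3 under at least 1 alternative, none of them called in the 9-array fit. RpL10Aa was 0.53 with the 2-array block, 0.14 with the replicate block, 1.75 without the set and -3.06 to 2.73 with 1 array left out. RpL29 was 0.0073 with the 2-array block, 0.0275 with the replicate block, 0.028 with quantile normalization, 0.0285 without the set, and -0.0489 to 0.0424 with 1 array left out. With 1 array left out, RpS19b ranged from -1.84 to 2.21, RpL22-like from -1.09 to 2.67, RpL37-2 from -0.62 to 0.74, RpS5b from -0.31 to 0.90, RpS10a from -0.15 to 1.04, RpL3 from -0.31 to 0.0088 and RpL34a from -0.13 to 0.0185. Leaving out 1 array moved 22 of 24 named differences and 22 of 24 named amplitudes by over 1.5 times or turned their sign. Without a turn, RpLP0 ranged from -0.20 to -0.02 and RpS28-like from 0.13 to 1.32, and the amplitude of RpL10Aa from 0.19 to 1.46, highest without ZT15 replicate 2. RpL37-2 was -0.0056 with arrays centred. With quantile normalization RpL39 was 0.0177, RpS28b 0.0185 and RpS29 0.0204, and RpS29 was 0.0143 with its probe sets averaged.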
